A study of Mus musculus with 18 samples.

Results

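Pemafibrate given for 24 h, from T0 to T24, was compared with its solvent DMSO in 6 of the 18 libraries of a mouse hepatocyte series, 3 with pemafibrate and 3 with DMSO, each pemafibrate library being paired with the DMSO library of the same replicate number. The cells were AML12, an untransformed line derived from hepatocytes of a mouse transgenic for human TGFα, and they had been synchronized in their circadian rhythm. Poly(A) RNA was sequenced as strand-marked libraries. In the study this exposure was the conventional reference for shorter ones, and the other 12 libraries are pemafibrate and DMSO given for 6 h, from T14 to T20 or from T24 to T30.

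The pemafibrate group of the 24 h window received the drug from T0 to T24 and the DMSO group received the solvent over the same hours. No genotype or further treatment is named in the labels, and the dose of pemafibrate is not given in the sources used here. All groups share the line and the synchronization, and no untreated or unsynchronized cells were part of the comparison.

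Pemafibrate binds PPARα, a nuclear receptor activated by fatty acids. With its partner RXR the receptor binds repeated hexamers in DNA and raises transcription of genes for fatty acid uptake, activation, transport into mitochondria, oxidation and ketone body formation. In liver this programme is known for its part in fasting, and fibrate drugs act on it to lower blood triglycerides.

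The line expressed some defining hepatocyte genes and lacked others. Alb, serum albumin, had a normalized signal of 3406 to 6406 with pemafibrate and 3124 to 6314 with DMSO, and Hnf4a, a hepatocyte transcription factor, had 6357 to 7871 with pemafibrate and 5476 to 7949 with DMSO. Of 24 hepatocyte markers 17 reached the minimum mean of 10 used for testing. The other 7, Cps1, Asgr1, Apoa1, Apoa2, Apoh, Cyp2e1 and Tdo2, did not, and Cps1, a urea cycle enzyme, was at 0.99 to 2.99 with pemafibrate and 0 to 1.99 with DMSO. Of 9 genes usual for bile duct cells 7 reached the minimum, among them Krt19 at 5793 to 8768 with pemafibrate and 6469 to 9292 with DMSO. That list summed to 58881 to 80478 with pemafibrate and 58944 to 82840 with DMSO. Lrat, a stellate cell marker, and the leukocyte markers Adgre1, Clec4f, Marco and Cd3e were listed at 0 in every library. Other members of these lists were present. Of 11 stellate cell or fibroblast markers 6 reached the minimum, and the list summed to 25368 to 31881 with pemafibrate and 26390 to 31798 with DMSO. Of 10 macrophage and leukocyte markers 4 reached it, and the list summed to 296.9 to 336.8 with pemafibrate and 273.0 to 442.5 with DMSO. Of the 36 measured genes of the 5 marker lists none passed between pemafibrate and DMSO in limma, and 2 were at an unadjusted p below 0.05.

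Normalized totals lay between 31461977 and 33357993 per library, and read depth before normalization is unknown. Replicate number held 62.5% of the sum of squares over the 13325 genes tested, treatment held 12.4% and the remainder 25.1%. These shares were not divided by degrees of freedom, which differ between the sources, so they do not measure treatment against noise. The labels do not state whether the replicates were separate cultures, and the p-values below therefore measure only how far these libraries differ, which can be technical.

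After 24 h, 7 genes rose and none fell, and 6 of the 7 belong to a list of 21 established PPARα targets. That list was chosen with earlier results of these data known, so the membership is a description. The 6 described here are Aldh1a1, Acot1, Acot2, Angptl4, Plin2 and Cpt1a, whose folds ran from 1.29 to 1.94. Genes were tested on log2(value + 1) with limma, with the replicate number as a block, and passed at a Benjamini-Hochberg adjusted p below 0.05 over all genes. The 7 are 0.0525% of the genes tested, and the share called lower was 0.0%. At an unadjusted p below 0.05 there were 422 higher genes (3.17%) and 267 lower genes (2.0%), 689 in all or 5.17%. Without the block limma called 0 genes at the adjusted threshold and 94 at an unadjusted p below 0.05. It also called 0 genes in the paired fit without a filter on low values (875 at an unadjusted p below 0.05) and in the paired fit without a variance trend (730).

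Most of the transcriptome lay close to equality. The median log2 fold change was −0.0027, and 6440 genes (48.3%) were positive. The median half-width of a gene's 95% interval was 0.16 on the log2 scale, or 1.11-fold. It was 0.11, or 1.08-fold, for the 6419 genes with a mean above 1000, and 0.64, or 1.56-fold, for the 2456 genes with a mean of 10 to 100. Of 22 genes whose fitted log2 fold change exceeded 2 in size, 20 had a library with a value below 1, 10 had the same sign in all 3 pairs and 1 passed.

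**Figure D1:**
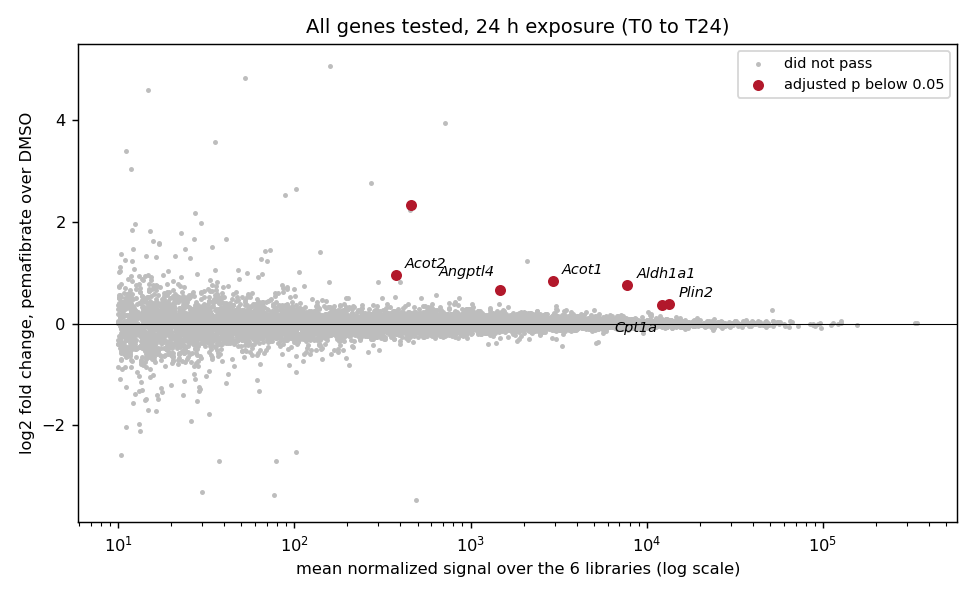
Log2 fold change, pemafibrate over DMSO, against the mean normalized signal of the 6 libraries (log axis), with 1 point for each of 13325 genes; red points passed at an adjusted p below 0.05. The 7 red points all lie above 0, the 6 described genes carry labels, and the spread of the grey points is widest at low means.

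The passing genes are described by their role, beginning with fatty acid thioesterases. Acot1 (ENSMUSG00000072949), a cytosolic enzyme that splits fatty acyl-CoA into free fatty acid and coenzyme A, had a signal of 4357, 4052 and 2836 with pemafibrate, against 2403, 2429 and 1528 with DMSO. Every pemafibrate library was above every DMSO library, and replicate 3 was the lowest in both groups. The means were 3748 ± 805 with pemafibrate and 2120.0 ± 513 with DMSO (SD, n = 3 each). Acot1 rose 1.78-fold (95% interval 1.65 to 1.92; limma, adjusted p = 0.00236).

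Acot2 (ENSMUSG00000021226), the mitochondrial thioesterase, had 627, 507 and 353 with pemafibrate, against 343, 249 and 179.9 with DMSO. The groups did not overlap, although pemafibrate replicate 3 was only a little above DMSO replicate 1. Acot2 averaged 496 ± 137 with pemafibrate and 257 ± 82.1 with DMSO (SD, n = 3 each), and it rose 1.94-fold (95% interval 1.70 to 2.21; limma, adjusted p = 0.0127). Acot1 and Acot2 are close paralogs, so the division of reads between them is uncertain.

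Cpt1a (ENSMUSG00000024900), which makes the acylcarnitines that enter mitochondria, had 15809.5, 13249 and 12083 with pemafibrate, against 12249, 10112 and 9483 with DMSO. The groups overlapped, since pemafibrate replicate 3 lay under DMSO replicate 1, while each pemafibrate library was above its own pair. Its means were 13714 ± 1906 with pemafibrate and 10615 ± 1450.1 with DMSO (SD, n = 3 each), a rise of 1.29-fold (95% interval 1.23 to 1.36; limma, adjusted p = 0.0127). Leaving out pair 1, 2 or 3 ended the call each time, with adjusted p of 0.0536 to 0.0669, while the log2 fold change stayed between 0.36 and 0.38.

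Plin2 (ENSMUSG00000028494), a coat protein of lipid droplets, had 13678, 16714 and 15340.1 with pemafibrate, against 10134, 13036 and 11882 with DMSO. Replicate 2 was the highest and replicate 1 the lowest in both groups, which did not overlap. It averaged 15244 ± 1520.4 with pemafibrate and 11684 ± 1461 with DMSO (SD, n = 3 each) and rose 1.31-fold (95% interval 1.24 to 1.38; limma, adjusted p = 0.0127). Plin2 no longer passed without pair 1 (adjusted p = 0.0554) or pair 3 (adjusted p = 0.0645).

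Angptl4 (ENSMUSG00000002289), a secreted inhibitor of lipoprotein lipase, had 2149.5, 1675 and 1571 with pemafibrate, against 1320.2, 1054 and 1043 with DMSO. Its groups did not overlap, and replicate 1 was the highest in both. The means were 1798 ± 308 with pemafibrate and 1139 ± 157 with DMSO (SD, n = 3 each), and Angptl4 rose 1.57-fold (95% interval 1.45 to 1.71; limma, adjusted p = 0.0103). Without pair 2 neither Angptl4 (adjusted p = 0.0543) nor Acot2 (0.107) passed.

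Aldh1a1 (ENSMUSG00000053279), which oxidizes retinaldehyde to retinoic acid, was the passing gene outside the target list and had the smallest p of all genes. Its signal was 12269.9, 7499 and 9524 with pemafibrate, against 7214, 4404 and 5776 with DMSO. The groups did not overlap, and replicate 1 was the highest and replicate 2 the lowest in both. Aldh1a1 averaged 9764 ± 2394 with pemafibrate and 5798 ± 1405 with DMSO (SD, n = 3 each), a rise of 1.68-fold (95% interval 1.59 to 1.78; limma, adjusted p = 0.00102). Reads may be shared with its paralog Aldh1a7, which had 262, 86.4 and 159.7 with pemafibrate, against 174, 73.7 and 108 with DMSO and did not pass (log2 fold change 0.46 ± 0.13, SE; limma, adjusted p = 0.832).

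**Figure D2:**
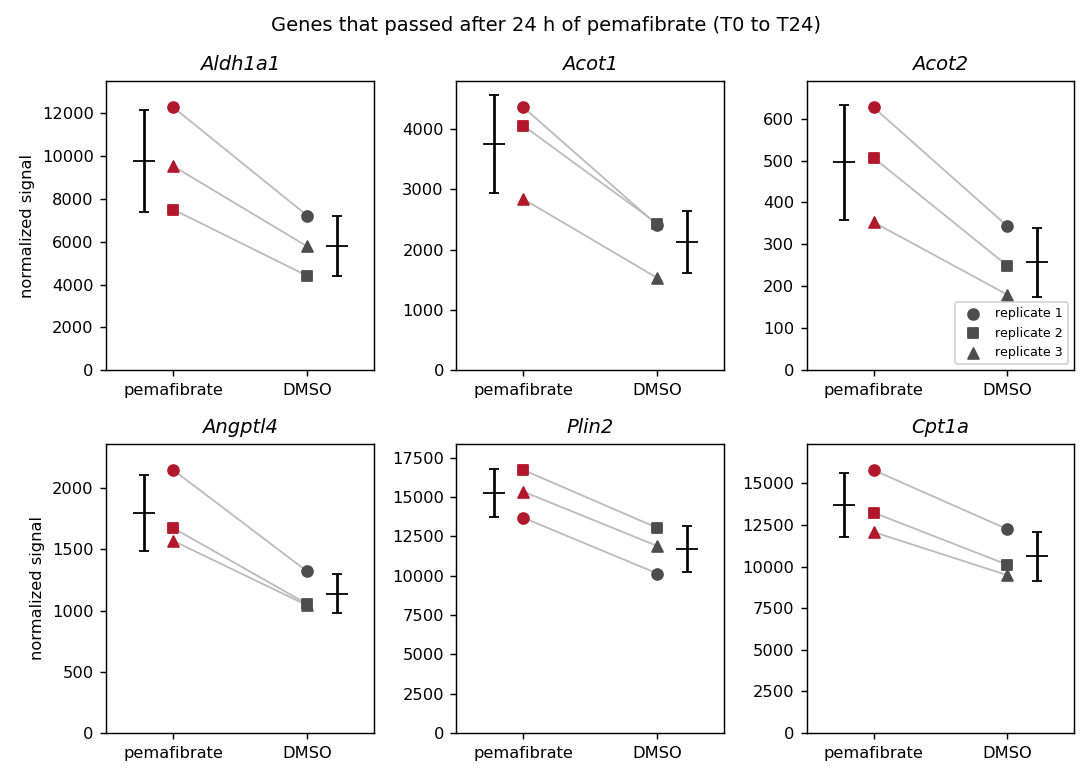
Normalized signal of the 6 described genes that passed, in each pemafibrate and DMSO library; grey lines join libraries of the same replicate number, and the bars beside the points give the mean ± SD of 3 libraries. Every line is higher at its pemafibrate end, and the groups overlap for Cpt1a.

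Promoter windows were searched for the element PPARα binds with RXR, since several of these genes moved together. The windows run from 250 bases before to 50 after a gene's start and come from RefSeq on GRCm38.p6; whether the deposited values used that build is not known. The element was spelled AGGTCANAGGTCA and read on both strands, N being any base, and it contains the half-site AGGTCA. The passing genes, the 16 core genes above the minimum and the next 12 genes in each direction were looked up, 39 genes in all. A window was available for 30 of them, 36 windows in all. Angptl4, which passed, was among the genes without a window, so no match could be sought for it. A match of at least 10 of 12 letters was in 4 of the 36 windows (11.1%) and in 3.861% of all 32841 windows. An exact half-site was in 6 of the 36 (16.7%) and in 16.257% of all windows. The 4 matches were in windows of Plin2, which passed, and of Creb3l3, Slc25a20 and Cd36, which did not. All 4 genes are on the list of established PPARα targets, so the shares of windows do not test the 24 h response. The windows of Plin2 and Creb3l3, whose estimates were positive in all 3 pairs, and of Cd36, whose estimate was near 0, are printed 5′ to 3′ on the gene's strand, with the matched 13 letters in capitals and the rest in lower case.
Plin2, chr4:86670010-86670309, minus strand: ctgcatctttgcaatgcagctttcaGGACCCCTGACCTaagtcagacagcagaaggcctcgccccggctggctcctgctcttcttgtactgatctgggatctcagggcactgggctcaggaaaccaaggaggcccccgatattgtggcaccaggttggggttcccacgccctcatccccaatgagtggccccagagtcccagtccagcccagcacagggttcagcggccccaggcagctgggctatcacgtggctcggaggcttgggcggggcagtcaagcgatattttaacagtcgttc
Creb3l3, chr10:81092542-81092841, minus strand: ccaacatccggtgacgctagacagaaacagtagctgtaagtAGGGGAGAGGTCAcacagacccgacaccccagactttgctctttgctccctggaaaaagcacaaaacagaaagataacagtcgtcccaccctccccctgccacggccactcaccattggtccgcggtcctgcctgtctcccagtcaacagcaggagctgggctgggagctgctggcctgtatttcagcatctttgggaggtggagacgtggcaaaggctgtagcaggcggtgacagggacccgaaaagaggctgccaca
Cd36, chr5:17835847-17836146, minus strand: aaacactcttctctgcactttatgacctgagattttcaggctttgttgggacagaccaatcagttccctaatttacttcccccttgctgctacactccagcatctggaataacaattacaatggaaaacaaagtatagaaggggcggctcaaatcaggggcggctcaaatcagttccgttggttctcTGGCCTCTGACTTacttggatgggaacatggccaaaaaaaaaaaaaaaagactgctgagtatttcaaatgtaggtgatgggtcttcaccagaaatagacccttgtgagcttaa
The match began 225 bases before the start in Plin2, 209 before it in Creb3l3 and 63 before it in Cd36. In Slc25a20, also positive in all 3 pairs but not printed, the match began 6 bases after the start. A match describes letters only, and binding was not measured.

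The core target list, chosen with earlier results of these data known, had 16 of its 21 genes above the minimum mean. Of these 16, 13 had a positive log2 fold change, 10 were higher in all 3 pairs and 6 passed. Over all genes the shares were 48.3%, 12.7% and 0.0525%. The list median was 0.28, against −0.0027 over all genes tested. The other 5 genes were too low to test. Fabp1, the liver fatty acid binding protein, had 1.01 to 5.02 with pemafibrate and 0 to 2.00 with DMSO, and Cyp4a10, which omega-hydroxylates fatty acids, had 1.99 to 10.98 with pemafibrate and 3.08 to 14.01 with DMSO. Fgf21, a secreted hormone, and Cidec, a lipid droplet protein, reached at most 2 in any library, as did Cyp4a14.

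Pdk4, the kinase that switches off pyruvate dehydrogenase, lay just outside the threshold. It had 269, 169.6 and 174 with pemafibrate, against 76.5, 71.3 and 75.6 with DMSO. The DMSO libraries were nearly level and all pemafibrate libraries were above them, with replicate 1 the highest. Its log2 fold change was 1.41 ± 0.16 (SE; fold 2.66, 95% interval 2.05 to 3.44; limma, adjusted p = 0.0584). With robust variance estimates Pdk4 and Hsdl2 passed in limma (adjusted p = 0.0312 and 0.0336), and in a fit of all 18 libraries they passed at 0.00862 and 0.00295.

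Creb3l3, a liver transcription factor bound to the endoplasmic reticulum, had 139, 88.7 and 62.5 with pemafibrate, against 73.7, 27.8 and 18.04 with DMSO. Each pemafibrate library was above its pair, but the groups overlapped. The log2 fold change of 1.43 ± 0.22 did not pass (SE; limma, adjusted p = 0.28), but Creb3l3 passed in the fit of all 18 libraries (adjusted p = 0.0115).

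The remaining core genes were closer to equality. Slc25a20, the carnitine-acylcarnitine carrier, had 1054, 889.6 and 798 with pemafibrate, against 902, 814 and 719 with DMSO, a log2 fold change of 0.17 ± 0.06 (SE). Acsl1, which activates long-chain fatty acids, had 0.18 ± 0.07. Both were higher in all 3 pairs without passing. Acadm, a medium-chain acyl-CoA dehydrogenase, was at −0.04 ± 0.05, Pex11a, a peroxisome division protein, at 0.03 ± 0.08 and Ehhadh, the peroxisomal bifunctional enzyme, at 0.04 ± 0.17. Vnn1, a pantetheinase, was at −0.01 ± 0.07 and Cd36, a fatty acid transporter, at −0.03 ± 0.23. Pex11a, Ehhadh, Vnn1 and Cd36 changed sign when 1 pair was left out.

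The receptors themselves did not pass. Ppara, which encodes PPARα, had 191, 157 and 100.1 with pemafibrate, against 181, 206 and 230.1 with DMSO. It was lower with pemafibrate in pairs 2 and 3 and higher in pair 1, and the difference of −0.50 ± 0.22 (log2, SE) had a wide interval of −1.02 to 0.02 (limma, adjusted p = 0.946). Ppard, the gene of the widely expressed relative PPARδ, had 770.2, 1074 and 822 with pemafibrate, against 1034, 796 and 968 with DMSO. Pparg, the gene of the adipocyte regulator PPARγ, had 133, 110.0 and 136 with pemafibrate, against 133, 112 and 144 with DMSO. Nrip1, a corepressor of nuclear receptors, was higher in all 3 pairs at 1408, 1414 and 1441 with pemafibrate, against 1109.8, 1129.9 and 1231 with DMSO (log2 fold change 0.30 ± 0.05, SE; limma, adjusted p = 0.4). Ppargc1a, a coactivator of mitochondrial genes, had 552, 568 and 469 with pemafibrate, against 419.8, 458 and 384 with DMSO, without overlap (log2 fold change 0.33 ± 0.07, SE). Of 22 receptor and coregulator genes 12 were positive, none passed in limma (2 were at an unadjusted p below 0.05) and the median was 0.02.

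Next to the threshold, 12 higher genes, Pdk4 and Creb3l3 of the core list among them, and 12 lower genes were taken by a rule, those with the smallest p among genes that did not pass and had 1 sign in all 3 pairs. In all, 1686 genes were higher in every pair and 1716 genes (12.9%) lower in every pair. Pemafibrate values lay wholly above DMSO values for 215 genes (1.61%) and wholly below them for 180 (1.35%). Since the 24 were chosen by their p in this same comparison, their values are a description.

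Among the higher genes, Hsdl2, a peroxisomal dehydrogenase of the steroid dehydrogenase-like family, was next to the threshold. It had 849, 789 and 632 with pemafibrate, against 575, 543 and 426 with DMSO, with no overlap (log2 fold change 0.55 ± 0.06, SE; limma, adjusted p = 0.0584). Crot, which forms carnitine esters of medium-chain fatty acids in peroxisomes, had 4411, 3837 and 3156 with pemafibrate, against 3412, 3149 and 2808 with DMSO. Eci2, an isomerase needed to oxidize unsaturated fatty acids, had 3372, 3539.7 and 3209 with pemafibrate, against 2684, 3094 and 2629 with DMSO, and its groups did not overlap. Their log2 fold changes were 0.27 ± 0.05 for Crot and 0.27 ± 0.04 for Eci2 (SE).

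Lipid transport had 2 genes here. Abca5, a lysosomal lipid transporter, had 792, 500.2 and 544 with pemafibrate, against 553, 347 and 390.0 with DMSO, higher in each pair but overlapping. Col4a3bp, which carries ceramide from the endoplasmic reticulum to the Golgi, had 3369, 3426 and 3463 with pemafibrate, against 2631, 3001 and 2508 with DMSO. The pemafibrate values of Col4a3bp were nearly level and all above the DMSO values (log2 fold change 0.34 ± 0.06, SE). Gtf2i, a transcription factor, was at 0.20 ± 0.03 and Gen1, a nuclease of DNA repair, at 0.51 ± 0.09. The cytochrome oxidase subunit mt-Co3, encoded in mitochondria, was at 0.27 ± 0.05, and at −0.02 in each 6 h window. By contrast mt-Co2, another such subunit, was lower in all 3 pairs at −0.37 ± 0.18 (SE), with −1.02 in pair 3. Gm2058, a predicted gene, was listed at 0 in all 3 DMSO libraries and had 11.1, 18.8 and 58.6 with pemafibrate.

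Among the lower genes, Ptprt, a receptor tyrosine phosphatase, had 45.6, 28.2 and 29.6 with pemafibrate, against 136, 71.6 and 65.7 with DMSO. All pemafibrate values were under all DMSO values, and DMSO replicate 1 was well above the other libraries (log2 fold change −1.33 ± 0.18, SE; limma, adjusted p = 0.17). Zfc3h1, a factor of nuclear RNA decay, had 3256, 2434 and 2176 with pemafibrate, against 3968, 2949.8 and 2665 with DMSO, lower in each pair with overlapping groups (log2 fold change −0.28 ± 0.04, SE; adjusted p = 0.17). Adh7, an alcohol dehydrogenase that acts on retinol, had 1242, 1144 and 1245 with pemafibrate, against 1479.6, 1685 and 1553 with DMSO without overlap. Its log2 fold change was −0.38 ± 0.07 (SE).

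Kntc1, a kinetochore protein, had a log2 fold change of −0.29 ± 0.05, Wdr3, a factor of ribosome assembly, −0.35 ± 0.06 and Usp16, a histone H2A deubiquitinase, −0.27 ± 0.05 (SE). Lrrk2, a large protein kinase, was at −0.82 ± 0.15, Ap1s3, an adaptor of vesicle coats, at −0.52 ± 0.10 and Gcat, an enzyme of threonine breakdown, at −0.59 ± 0.11. Syt8, a synaptotagmin, was at −1.70 ± 0.34 on low signals of 4.48, 6.50 and 8.37 with pemafibrate, against 19.2, 19.5 and 30.9 with DMSO, and Gm10163, a predicted gene, was at −0.44 ± 0.09. None of the 12 passed, and their adjusted p ran from 0.17 to 0.533 in limma.

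**Figure D3:**
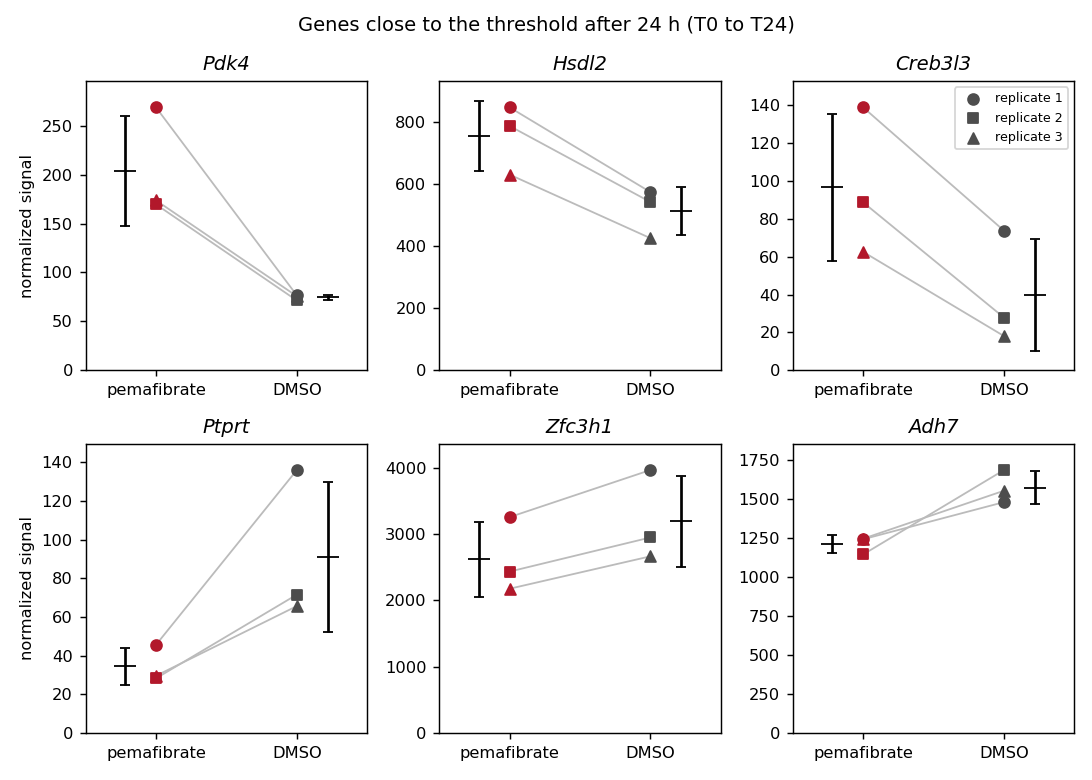
Normalized signal of 3 higher genes (Pdk4, Hsdl2, Creb3l3) and 3 lower genes (Ptprt, Zfc3h1, Adh7) that did not pass, in each pemafibrate and DMSO library; lines join replicate numbers and bars give the mean ± SD of 3 libraries. All lines share a direction within each gene, and the groups overlap for Creb3l3 and Zfc3h1.

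Lists of 27 further pathways were read against the median of −0.0027 over all genes. Their medians lay between −0.05 and 0.05, and the only gene of these lists that passed was Aldh1a1, of the retinoid list. The sign of 17 of the 28 list medians changed in at least 1 alternative setting, and 4 changed under rescaling alone.

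Fatty acid oxidation and its neighbours had single genes above the rest. Of 30 mitochondrial β-oxidation genes 20 were positive (48.3% of all genes were), and the median was 0.02. In all 3 pairs 6 were higher and 4 lower, as were 12.7% and 12.9% of all genes. Acadvl, the very-long-chain acyl-CoA dehydrogenase, had 3513, 3120.4 and 2928 with pemafibrate, against 3189, 2889 and 2378 with DMSO. Acaa2, a thiolase, had 1805, 1705 and 1382 with pemafibrate, against 1442, 1576 and 1229 with DMSO. Neither Acadvl nor Acaa2 passed (limma, adjusted p = 0.778 and 0.829). Mut, methylmalonyl-CoA mutase, was lower in each pair at 1556, 1564 and 1829 with pemafibrate, against 1835, 1912 and 2031 with DMSO (log2 fold change −0.23 ± 0.05, SE). Of 42 peroxisomal genes 19 were positive, with a median of −0.01. Abcd2, a peroxisomal fatty acyl-CoA transporter, was low and lower in each pair, at 21.7, 22.8 and 12.96 with pemafibrate, against 41.2, 40.2 and 23.2 with DMSO.

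In lipid storage and uptake, Hilpda, a lipid droplet protein that inhibits lipolysis, had 653, 618 and 653 with pemafibrate, against 490.4, 538 and 495 with DMSO without overlap (log2 fold change 0.34 ± 0.07, SE; limma, adjusted p = 0.533). Its list of 14 genes had a median near 0, with 6 positive, and Pnpla2, the main triglyceride lipase, was at 0.03 ± 0.04. Of 13 genes of fatty acid uptake and activation 8 were positive, with Acsl4, an arachidonate-preferring synthetase, at 0.09 ± 0.03. Of 10 ketone body genes 5 were positive, among them the monocarboxylate carrier Slc16a7 at 0.98 ± 0.36 (0.37 without pair 3, where DMSO was lowest at 13.2), while Aacs, which activates acetoacetate, was at −0.25 ± 0.08.

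Among mitochondrial carriers and pyruvate genes, Ucp2, an inner-membrane carrier, had 678, 641 and 736 with pemafibrate, against 485, 522 and 576 with DMSO. The groups did not overlap, and the log2 fold change of 0.38 ± 0.07 did not pass (SE; limma, adjusted p = 0.4). Pdk1, a second kinase of pyruvate dehydrogenase, had 949, 955 and 844 with pemafibrate, against 629, 818 and 668 with DMSO, without overlap, at 0.39 ± 0.08 (adjusted p = 0.533). Pcx, pyruvate carboxylase, was at −0.22 ± 0.07, and of 14 genes of pyruvate dehydrogenase control 5 were positive. The 34 nuclear genes of the respiratory chain all lay near equality, with 0 passing and 0 at an unadjusted p below 0.05 in limma, and a median of −0.02.

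The lists of lipid synthesis had medians of 0.008 and 0.01. Of 29 fatty acid and triglyceride synthesis genes 15 were positive, and Gpat3, a glycerol-3-phosphate acyltransferase, had 105, 113 and 115 with pemafibrate, against 86.8, 64.9 and 80.2 with DMSO without overlap (log2 fold change 0.52 ± 0.15, SE; limma, adjusted p = 0.836). Of 31 cholesterol genes 19 were positive and 7 were higher in all 3 pairs, where 48.3% and 12.7% of all genes were. Only 1 of the 31 was at an unadjusted p below 0.05 in limma. Abca1, a cholesterol exporter, was among the 7 at 0.22 ± 0.06 and did not pass (SE, limma, adjusted p = 0.832). Of 31 genes of glycolysis, gluconeogenesis and glycogen 24 were negative, where 6885 of all 13325 genes were. In all 3 pairs 5 were lower and 3 higher, as were 12.9% and 12.7% of all genes. Slc2a1, a glucose transporter, was at −0.14 ± 0.05 and Eno1, enolase, at −0.09 ± 0.04. Pfkp, a phosphofructokinase, was higher in all 3 pairs at 0.18 ± 0.08.

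The inflammatory lists had the lowest medians, −0.05 for 20 NF-κB and chemokine genes and −0.04 for 22 acute phase and complement genes. They had 15 and 12 negative and 5 and 10 positive members, while 6885 of all 13325 genes tested were negative. Saa3, an acute phase protein, had 5384, 9872 and 7083 with pemafibrate, against 5486, 11316 and 7853 with DMSO (log2 fold change −0.12 ± 0.04, SE), and Lcn2, an iron-siderophore binding protein, was at −0.09 ± 0.03. Ccl20 and Cxcl1, both chemokines, were at −0.13 ± 0.04 and −0.11 ± 0.04. All 4 were named for their small p in this same comparison, were lower in each pair and did not pass in limma. In all 3 pairs, 6 NF-κB and chemokine genes were lower and 3 higher. Among acute phase and complement genes 6 were lower and 2 higher in all 3 pairs.

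In the matrix list Col12a1, a collagen, had 7751, 6443 and 8598 with pemafibrate, against 7098, 5419 and 7707 with DMSO and a log2 fold change of 0.18 ± 0.04 (SE; limma, adjusted p = 0.533), while Lama5, a laminin chain, was at −0.11 ± 0.04. Of 24 clock genes 12 were positive, and none passed or was at an unadjusted p below 0.05 in limma, with Clock itself at 0.11 ± 0.05 and Per1, a repressor of the clock, at 0.17 ± 0.11. Of 33 cell cycle genes 18 were positive, with a median of 0.003 and Mki67, a proliferation marker, at 0.10 ± 0.04. Cytosolic ribosomal proteins (32 genes, 20 negative), immediate early genes (22, 14 negative) and stress response genes (32, 22 negative) had medians from −0.02 to −0.01. Over all genes tested 6885 of 13325 were negative. Of 26 NRF2 and glutathione genes 13 were positive. Xenobiotic metabolism (20 genes), autophagy (27), insulin and growth factor signalling (23), sulfur amino acids (17), uncoupling carriers (11) and mitochondrially encoded genes (13) had 8, 11, 16, 8, 4 and 6 positive members.

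**Figure D4:**
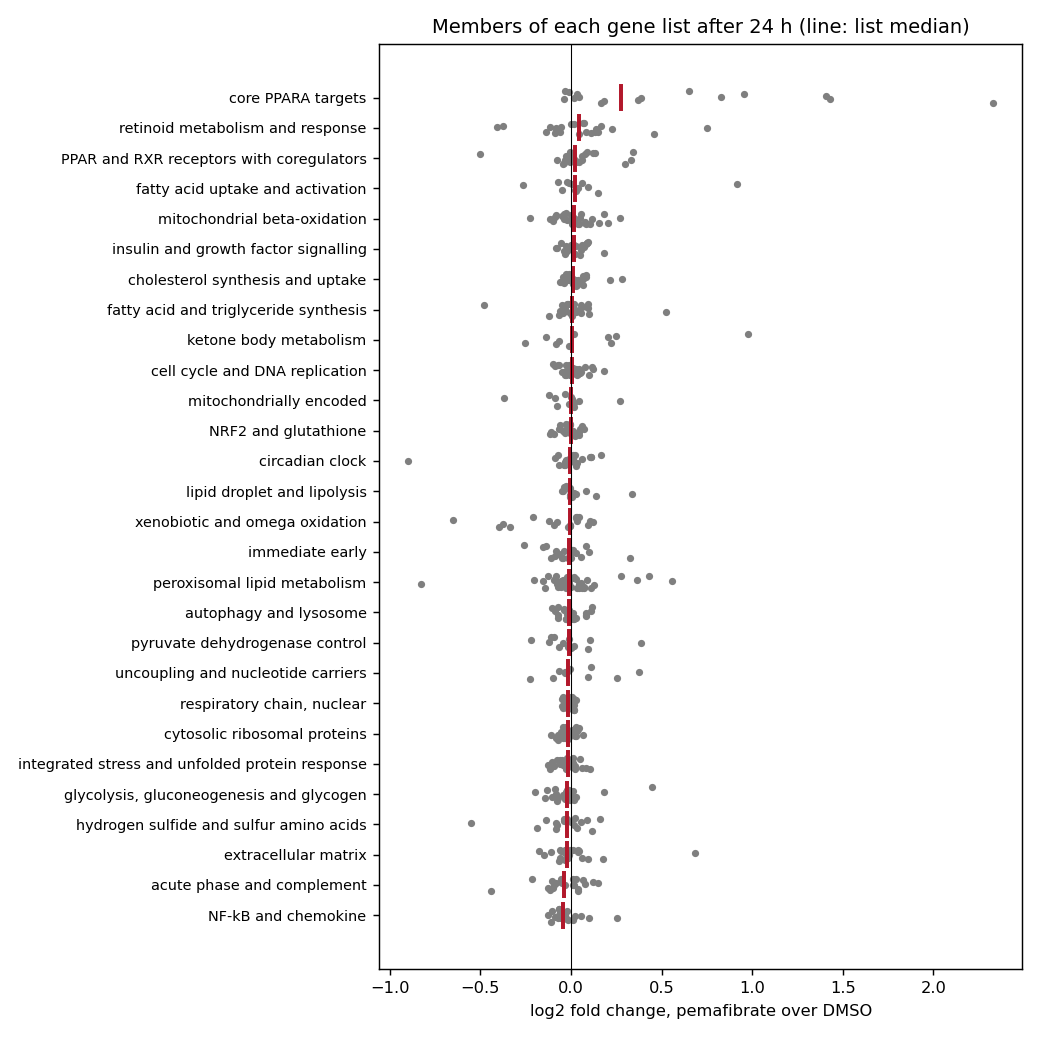
Log2 fold change at 24 h, pemafibrate over DMSO, of every measured member of 28 gene lists (grey points), with the list median as a red line. The median of the core targets is 0.28 and the other medians lie between −0.05 and 0.05.

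The 24 h genes were then read in the 6 h windows, which hold other libraries normalized separately. All 7 passing genes were higher with pemafibrate from T14 to T20 and from T24 to T30, where 6430 of 13210 and 6566 of 13231 genes were positive. Their median log2 fold change was 0.75 at 24 h, 0.58 from T14 to T20 and 0.59 from T24 to T30. Since the 7 were chosen by their p at 24 h, their 24 h estimates may be inflated against the other windows. Aldh1a1 rose in both 6 h windows as well, by 0.58 (limma, adjusted p = 0.0196) and 0.47 (adjusted p = 0.0184). Acot1 rose by 0.71 and 0.66 (limma, adjusted p = 0.0196 and 0.0132). In those windows 4 genes rose and 1 fell from T14 to T20 (0.0303% and 0.00757%), and 5 rose from T24 to T30 (0.0378%).

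The genes next to the threshold, also chosen by their p at 24 h, were read in the same way and with the same limit. Of the 12 higher genes, 10 of the 11 measured from T14 to T20 and 7 of 12 from T24 to T30 were positive, with medians of 0.42 at 24 h and 0.20 and 0.10 in the 6 h windows. Without the core targets Pdk4 and Creb3l3, 8 of 9 and 5 of 10 were positive, with medians of 0.32 at 24 h and 0.18 and 0.05 in the 6 h windows. Of the 12 lower genes, 8 and 5 were negative, with medians of −0.42 at 24 h and −0.08 and 0.02. Ptprt was at −1.33 at 24 h and at 0.49 and 0.69 in the 6 h windows. Adh7 was at −0.38, 0.12 and 0.01, and Pdk4 at 1.41, 1.08 and 1.01. The 16 core genes had medians of 0.28 at 24 h, 0.25 from T14 to T20 and 0.33 from T24 to T30.

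**Figure D5:**
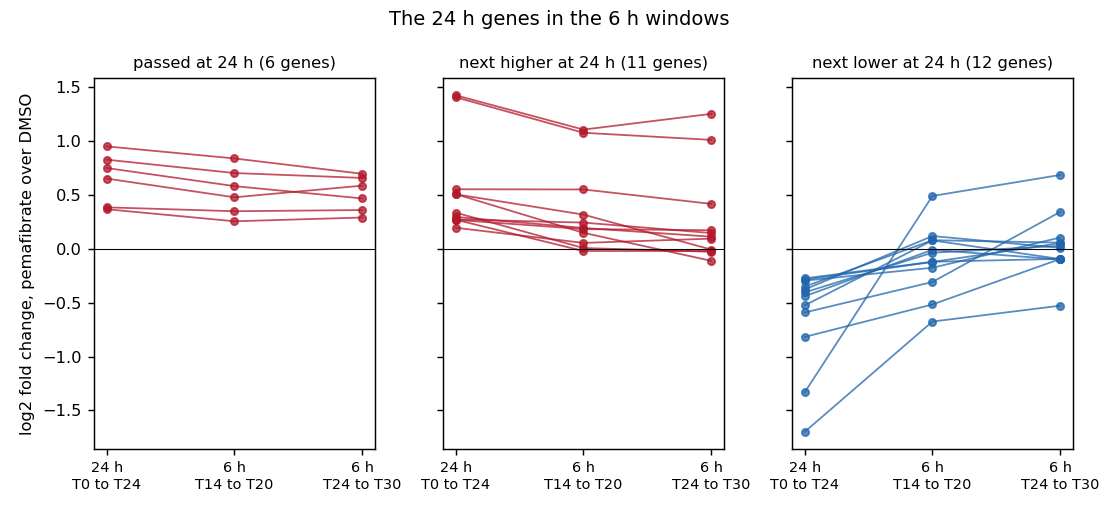
Log2 fold change, pemafibrate over DMSO, of the described genes in the 24 h window and both 6 h windows: 6 that passed at 24 h, 11 next higher (Gm2058 is left out, being unmeasured from T14 to T20) and 12 next lower. Lines of the passing genes stay above 0 in every window, and many of the lower genes approach or cross 0.

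The 24 h effect minus the mean 6 h effect was tested over 13258 genes with limma. None passed, 696 were at an unadjusted p below 0.05 (5.25%), and the smallest adjusted p was 0.505, for Zfc3h1. For Aldh1a1 the difference was 0.23 (95% interval 0.11 to 0.34, adjusted p = 0.791), for Acot1 0.15 (−0.002 to 0.30) and for Plin2 0.03 (−0.08 to 0.14). The 5 genes of smallest p were Zfc3h1 at −0.25 and Sin3a, a corepressor scaffold, at −0.27, then Gm2058, Col4a3bp at 0.35 and Eya3, a phosphatase and coactivator, at 0.28. Col4a3bp was at 0.34 at 24 h and at 0.01 and −0.03 in the 6 h windows. Exposure length and clock time changed together between the windows, so their parts in such differences cannot be told apart.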

How the data were processed

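AML12 poly(A) RNA was made into dUTP-marked libraries, per the labels' protocols, and groups and replicate numbers came from the titles. The authors deposited 1 table per window with 35551 Ensembl gene IDs; per the file headers these hold normalized signal, on a scale whose method is not given in the sources used here, nor are the counter's version, the genome build and the annotation. Low values did not sit on a single step per library, so whole reads were not recovered and no count test was run. A gene name table matched 35181 IDs.

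Genes whose mean signal reached 10 in the 6 libraries were tested on log2(value + 1), a scale that shrinks changes of low genes, with limma 3.58.1 in R 4.3.3 (variance trend, replicate block, two-sided, Benjamini-Hochberg over all genes, threshold 0.05). The fit was also tested on simulated data. Deviations from group means correlated at 0.447, 0.314 and 0.488 between libraries of the same number and at −0.353 to −0.11 between different numbers, so the numbers were taken to pair the libraries. The paired fit was made the main one with earlier results of these data known, including that the unpaired fit calls no gene. The members and lists were likewise chosen with earlier results known, and 1 symbol, Mut, was matched after its value had been seen.

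The rule for named genes took genes that passed, the 12 next higher and 12 next lower genes by p with 1 sign in all 3 pairs, measured core targets, up to 4 genes of smallest p per other list, the 3 PPAR genes and the 5 genes of smallest p for 24 h minus 6 h. A few genes taken by this rule, including 1 that passed at 24 h, stay in the counts but are not reported here. Alternatives were no block, other pseudocounts, filters, variance settings and scalings, a fit of all 18 libraries, and leaving out each pair.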

Additional observations from a re-analysis of the deposited data

Results flagged for a closer look

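For 19 of the 144 genes taken by the rule, the pemafibrate and DMSO libraries differed one way in all 3 pairs at 24 h and the other way in all 3 pairs of a 6 h window (13.2%). Over all 13325 genes tested this held for 846 (6.35%). Among genes with 1 direction at 24 h it held for 19 of 112 taken by the rule (17.0%) and for 24.8% of all such genes. The difference between those 2 windows was not itself tested; the values given are the 24 h effect minus the mean 6 h effect on the log2 scale, for which no gene passed in limma (adjusted p of these genes 0.505 to 0.956).

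Against T24 to T30, genes higher at 24 h and lower at 6 h were Gm2058 (6.01), Gpat3 (0.72), Eya3 (0.28), Pfkp, a phosphofructokinase (0.16), Gabarapl1, of autophagosomes (0.12), Mcm6, of the replicative helicase (0.12), and the lipid synthesis genes Gpam (0.0988), Scd1 (0.0949) and Cyp51 (0.0589). Those lower at 24 h and higher at 6 h were Ptprt (−1.92), Sin3a (−0.27), Zfc3h1 (−0.25) and C1ra, a complement protease (−0.16). Against T14 to T20, Rdh13, a retinol dehydrogenase, was higher at 24 h and lower at 6 h (0.29). The reverse held for Sin3a (−0.27), Slc25a14, a mitochondrial carrier (−0.26), Ephx2, an epoxide hydrolase (−0.24), Gstp1, a glutathione transferase (−0.16), Icam1, an adhesion molecule (−0.11), and Hpx, hemopexin (−0.0588).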

How the results depend on the processing

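The 24 h count of 7 higher and 0 lower genes was the same with pseudocounts of 0.5 and 5, a minimum mean of 50, and rescaling by TMM or the upper quartile. Each of these called the same 7 genes. No replicate block, no filter on low values and no variance trend each called 0 genes higher, with smallest adjusted p of 1, 0.0755 and 0.319 in limma; the fold changes of the 7 genes were the same in all of these, and without a block their errors were larger. Robust variance estimates called 9 higher. A fit of all 18 libraries called 13 higher and 1 lower (Zfc3h1), the 7 among them; the other 6 were Pdk4, Hsdl2, Creb3l3, Abca5 (adjusted p = 0.011), Crot (0.0292) and Col4a3bp (0.04). Leaving out 1 pair gave 4 (without replicate 2) to 10 (without replicate 1) higher genes and 0 to 2 lower ones, the 2 being Gm6565 and Zfp969 without replicate 1. Aldh1a1 and Acot1 were called whichever pair was left out. For 24 h minus 6 h the count of 0 higher genes became 1 without replicate 1 (Rpl14-ps1) and 1 without replicate 3 (Gm2223), and was 0 without replicate 2. No block, a pseudocount of 5, a minimum mean of 50 and no variance trend also gave 0, with 76, 696, 615 and 707 genes at an unadjusted p below 0.05 in limma.

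No gene taken by the rule reversed a call; 11 that had not passed moved, by a change of sign on leaving out a pair. The core list's median was 0.37 at a minimum mean of 50, and it was positive in every alternative. Of the 28 list medians, 17 took the other sign in at least 1 alternative and 4 did so under rescaling alone, so the signs of medians near 0 carry no direction. Every result rests on 3 pairs, and at a mean of 10 to 100 the median 95% half-width was 1.56-fold. The cause of the lost calls without a filter or a trend was not tested.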
